A study of Mus musculus with 10 samples.

Results

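The 32 genes described here carry glucose into the cell, break it down to lactate, export the lactate, and build or break down glycogen. They were chosen as pathway members by symbol, with earlier results of these data known, from the 40690 Ensembl genes of the count table, and all 32 were found there and passed the filter on low counts. Polyadenylated RNA was sequenced in 10 samples of heart ventricles from male C57BL/6 mice aged 10 weeks. The naive group held 5 samples from mice with no surgery, and the sham group held 5 samples from mice with a sham operation. That operation is the surgical control for ischemia-reperfusion, in which a coronary artery is blocked and reopened. No transgene, deletion or drug is named for either group, and how long after surgery the hearts were taken is not stated in the labels. The question put to these genes is how far the control surgery alone leaves their transcripts apart from those of unoperated hearts. Nothing in the labels says more than that the libraries are separate samples, so the p-values measure the spread between these samples, which may in part be technical.

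Glucose enters cardiomyocytes, the contractile cells of the heart, through carriers of the Slc2a family. Hexokinase then traps it as glucose 6-phosphate, which is stored as glycogen or passed through glycolysis to pyruvate and lactate. The adult heart draws most of its energy from fatty acids and burns glucose and lactate beside them. Many steps of the pathway are served by paralogs, often with a form typical of striated muscle and a form found in most tissues, so each family is described here paralog by paralog.

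Naive libraries held 9683181 to 17577906 counts and sham libraries 10654107 to 21537135. A gene with 3 counts stood at 0.122 to 0.357 CPM, depending on the library, where CPM values are counts scaled to a common library size corrected by TMM factors. The members took 1.23% to 1.47% of the counts of a library. Sham 4 had the most detected genes of the 10 libraries (24214, against 20235 to 22570), and naive 1 lay farthest along the second principal component. Cardiomyocyte markers such as Myh6 and Tnnt2 were abundant in every library, and their summed level was 96147 to 99326 CPM in naive and 70453 to 84986 CPM in sham libraries, with 10 of 12 lower in sham and none higher (median log2 fold change -0.39). All 11 macrophage and monocyte markers were higher in sham (summed 440.0 to 539 CPM in naive and 1382 to 1695 CPM in sham), as were 9 of 10 fibroblast markers (1681 to 2367 CPM and 14014 to 25746 CPM). The collagen genes Col1a1, Col3a1 and Col1a2 held most of the fibroblast sum (8598, 6944 and 3159 of 19601 CPM on average in sham). They rose 9.97- to 14.3-fold, the other fibroblast markers that passed rose 1.47- to 2.54-fold, and Dcn did not pass (1.24-fold). In these bulk samples fewer cells of a type and less RNA per cell cannot be told apart, and the part of cell mixture in the results below was not tested.

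Of the 32 members, 5 rose and 14 fell in sham ventricles, and the other 13 did not pass the test. The 5 genes that rose were the lactate carrier gene Slc16a3, the phosphofructokinase-2 genes Pfkfb3 and Pfkfb4, the enolase gene Eno1 and the glucose carrier gene Slc2a1. Those that fell included Slc2a4, Hk2, Pfkm, Pfkfb2, Eno3, Ldhb, Slc16a1 and every one of the 7 glycogen genes. By edgeR's quasi-likelihood test at an adjusted p under 0.05, 15.6% of the members were higher, beside 17.2% of the 13622 genes tested, and 43.8% were lower, beside 15.5% of all genes tested. The median log2 fold change was -0.24 over the members and -0.05 over all genes tested. The 2 groups did not overlap in 4 members that were higher in sham, a pattern seen in 13.6% of genes tested, and in 11 that were lower, a pattern seen in 9.18%. In the other 17 members the groups overlapped. Without naive 1 and sham 4, a choice made after seeing the data, 5 members were higher and 18 lower, beside 2594 and 2131 of the 13603 genes then tested.

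Which members were called depended in part on the scaling. TMM factors ran from 0.870 to 0.975 in naive and from 1.04 to 1.15 in sham libraries, and scaling by library size alone raised the median log2 fold change of all genes by 0.26. With library size alone 9 members were called higher and 2 lower, beside 4473 and 283 of all genes, where TMM gave 2342 and 2113. The calls of 7 members held under both scalings, namely Slc2a1, Pfkfb3, Pfkfb4, Eno1 and Slc16a3, which were higher, and Pfkfb2 and Phkg1, which were lower. The members' median lay 0.20 below that of all genes (log2) under either scaling. This was close to fixed in advance, since a change of scaling shifts every gene by nearly the same amount. The ratio of a gene to its paralog within a library does not depend on the scaling, and is therefore given for each family beside the CPM values. The summed level of a family does depend on it. Such sums are given below with TMM scaling and were not tested.

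**Figure D1:**
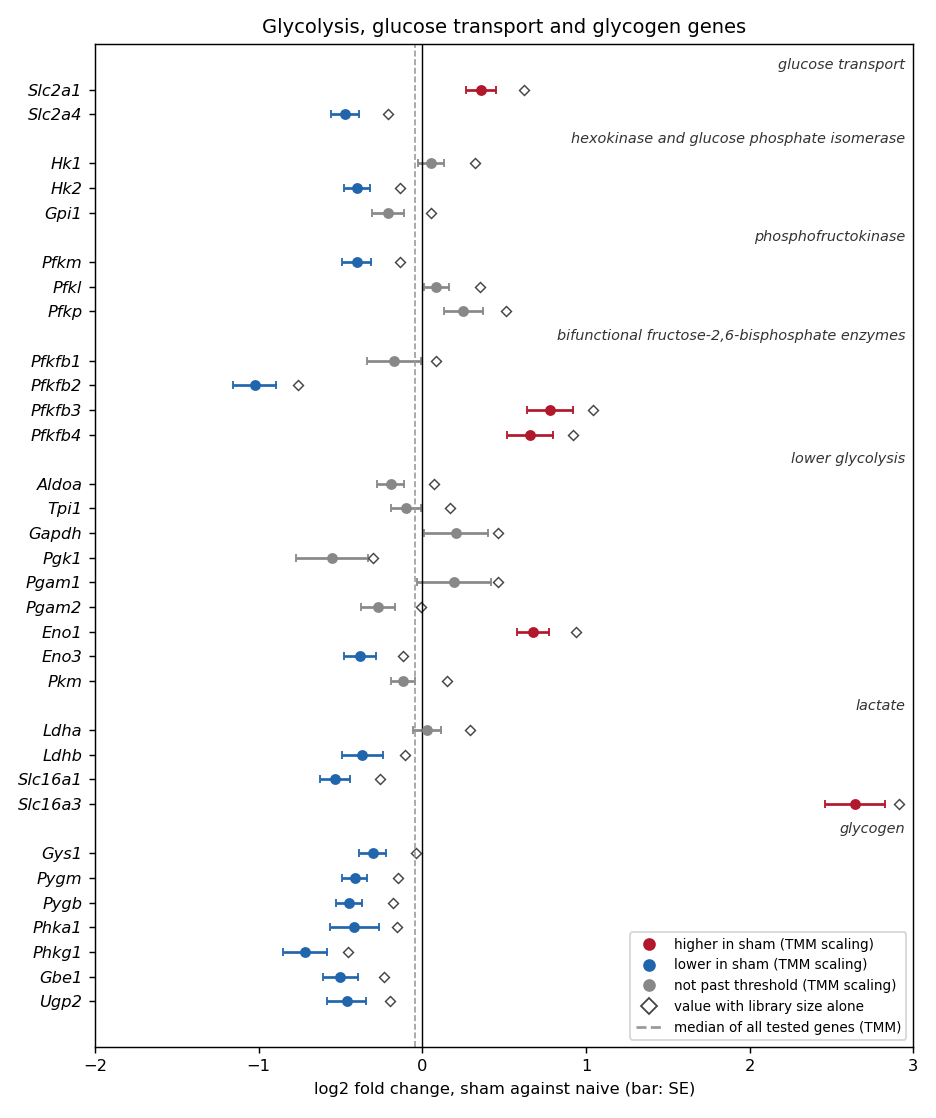
Log2 fold change, sham against naive, of the 32 members grouped by role, with TMM scaling (points, bars of 1 standard error, coloured by call) and with library size alone (diamonds). With TMM, 5 members were called higher and 14 lower, and the 7 glycogen genes lay between -0.72 and -0.30.

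The glucose carriers moved in opposite directions. Slc2a4 (chr11:69942539-69948188, minus strand, GRCm38) encodes GLUT4, the insulin-responsive carrier of muscle and fat. It read 751, 778, 788, 692 and 774 CPM in naive libraries 1 to 5 and 644, 533, 507, 523 and 516 CPM in sham libraries 1 to 5. Every sham library lay below every naive library, with sham 1 nearest to them, and the log2 fold change was -0.47 ± 0.09 (SE, adjusted p = 5.66e-04). Slc2a1 (chr4:119108711-119137983, plus strand) encodes GLUT1, the carrier of basal glucose uptake in most cells. Its values were 22.5, 23.9, 25.4, 23.3 and 29.2 CPM in naive and 28.9, 30.1, 33.3, 33.4 and 33.5 CPM in sham libraries. The groups touched, since naive 5 lay just above sham 1, and Slc2a1 rose by 0.36 ± 0.09 (log2 fold change ± SE, adjusted p = 0.00787). Per length of transcript Slc2a1 was 2.48% ± 0.226 (SD, n = 5) of the pair in naive and 4.38% ± 0.624 in sham libraries. The Slc2a1 to Slc2a4 ratio was 1.79-fold higher in sham (exact two-sided permutation test p = 0.00794, the smallest that 5 against 5 allows; 0.0115 adjusted over the 13 pairs tested). Slc2a4 remained the dominant transcript, and with TMM scaling the summed level of the pair in sham was 73.4% of that in naive libraries.

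Hexokinase commits glucose to the cell, and of its paralogs Hk2 passed the test and Hk1 did not. Hk2 (chr6:82725025-82774454, minus strand), the insulin-responsive form of adult muscle, read 422, 467, 477, 500.5 and 487 CPM in naive and 377, 383, 330.4, 349 and 346 CPM in sham libraries. All sham values were lower than all naive values, and Hk2 fell by 0.40 ± 0.08 on the log2 scale (adjusted p = 0.00118). Hk1, the form found in most tissues, stood at 342 ± 19.5 CPM (SD, n = 5) in naive and 354 ± 26.2 CPM in sham libraries, a log2 difference of 0.05 ± 0.08 (adjusted p = 0.657). By library, Hk1 read 376, 330.3, 329, 332 and 341 CPM in naive and 384, 375, 344, 351 and 318 CPM in sham, so every naive value lay within the sham range. The Hk1 to Hk2 ratio was 1.37-fold higher in sham, with no overlap of the groups (exact permutation p = 0.00794, adjusted 0.0115). Which hexokinase is the more abundant per length depended on the length used: Hk1 and Hk2 stood at 88.7 and 85.4 FPKM in naive libraries by principal transcript, but at 40.0 and 78.9 FPKM by the union of exons, where FPKM is CPM per kilobase. Gpi1, the isomerase of the next step, stood at 369.7 ± 44.7 and 319.5 ± 28.7 CPM and did not pass the test (-0.21 ± 0.10, adjusted p = 0.11).

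Phosphofructokinase-1 catalyses the step that commits sugar to glycolysis. Its muscle form Pfkm (chr15:98092589-98132451, plus strand) read 955, 1100.0, 1129.9, 1189.5 and 1151 CPM in naive and 905, 845, 750.3, 895 and 791 CPM in sham libraries. The sham values all lay below the naive values, and Pfkm fell by 0.40 ± 0.09 on the log2 scale (adjusted p = 0.00239). Of its exon bases 10.2% are shared with the gene Gm26513. The liver form Pfkl read 241, 226, 212, 222 and 228 CPM in naive and 229, 253, 242, 256 and 219.6 CPM in sham libraries, and its groups overlapped (0.09 ± 0.08, adjusted p = 0.418). The platelet form Pfkp read 43.2, 46.8, 45.7, 61.9 and 66.1 CPM in naive and 52.9, 65.0, 62.9, 68.3 and 64.9 CPM in sham libraries, also with overlap (0.25 ± 0.12, adjusted p = 0.125). Relative to Pfkm both were higher in sham libraries. The Pfkl to Pfkm ratio was 1.40-fold and the Pfkp to Pfkm ratio 1.59-fold higher (exact permutation p = 0.00794 for each, adjusted 0.0115), and these ratios share Pfkm. The Pfkp to Pfkl ratio differed by 1.14-fold and did not pass (exact permutation p = 0.246, adjusted 0.267). Per length Pfkm held 83.9% ± 1.42 (SD, n = 5) of the family in naive and 78.5% ± 1.59 in sham libraries.

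The bifunctional Pfkfb enzymes make and break down fructose 2,6-bisphosphate, the strongest allosteric activator of phosphofructokinase-1. Pfkfb2 is the main form of heart, Pfkfb3 has the highest kinase activity relative to its phosphatase activity and is inducible in many cells, Pfkfb4 is known from testis and tumours, and Pfkfb1 from liver and skeletal muscle. Pfkfb2 (chr1:130689182-130729253, minus strand) read 40.9, 42.5, 47.3, 56.6 and 62.8 CPM in naive and 28.5, 28.3, 20.1, 22.2 and 24.5 CPM in sham libraries. No sham library reached the lowest naive library, and Pfkfb2 had the largest decrease of the 32 members (log2 fold change -1.02 ± 0.13, adjusted p = 2.17e-05). The gene Gm29427 shares 17.4% of its exon bases. Pfkfb3 (chr2:11471433-11554077, minus strand) read 9.64, 7.94, 9.80, 8.07 and 10.0 CPM in naive and 15.3, 16.9, 20.3, 12.6 and 13.2 CPM in sham libraries. Every sham library lay above every naive library, sham 3 highest, and Pfkfb3 rose by 0.78 ± 0.14 (log2, adjusted p = 5.12e-04). Pfkfb4 (chr9:108991778-109032228, plus strand) read 5.35, 7.14, 8.77, 7.29 and 8.40 CPM in naive and 9.35, 11.2, 11.7, 12.4 and 13.8 CPM in sham libraries. Its groups did not overlap, and Pfkfb4 rose by 0.66 ± 0.14 (log2, adjusted p = 0.00221). Pfkfb1 read 3.93, 4.80, 4.11, 5.96 and 6.25 CPM in naive and 5.11, 4.24, 3.76, 4.64 and 4.65 CPM in sham libraries. Its groups overlapped and it did not pass (log2 -0.17 ± 0.17, adjusted p = 0.457).

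The make-up of the Pfkfb family differed between the groups. Pfkfb2 was 61.7% ± 1.86 (SD, n = 5) of the family's transcripts per length in naive and 37.4% ± 4.17 in sham libraries. Pfkfb3 went from 10.9% ± 1.98 to 22.7% ± 4.56 and Pfkfb4 from 11.6% ± 1.75 to 22.6% ± 3.65. The Pfkfb3 to Pfkfb2 ratio was 3.43-fold higher in sham, the Pfkfb4 to Pfkfb2 ratio 3.20-fold and the Pfkfb1 to Pfkfb2 ratio 1.82-fold (exact permutation p = 0.00794 for each, adjusted 0.0115). These 3 ratios share Pfkfb2 and are not independent. The family's summed level per length in sham was 81.5% of that in naive libraries. The order of Pfkfb1 and Pfkfb4 in naive libraries, 2.88 against 2.12 FPKM by principal transcript, turned with the union of exons (1.25 against 1.52 FPKM).

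Since Pfkfb2 and Pfkfb3 moved in opposite directions, the 250 bases before a RefSeq start of each gene are shown (GRCm38.p6, each read on the gene's strand). The starts are those nearest to the Ensembl start, with windows chr1:130716049-130716298 for Pfkfb2 and chr2:11553930-11554179 for Pfkfb3, both on the minus strand. The Pfkfb2 start nonetheless lay 13205 bases from the Ensembl start, and that of Pfkfb3 148 bases, so the 2 windows are not matched in this respect. Capitals mark ACGTG on either strand, the core of sites known to be bound by hypoxia-inducible factors, or the E-box CACGTG that contains it.
Pfkfb3: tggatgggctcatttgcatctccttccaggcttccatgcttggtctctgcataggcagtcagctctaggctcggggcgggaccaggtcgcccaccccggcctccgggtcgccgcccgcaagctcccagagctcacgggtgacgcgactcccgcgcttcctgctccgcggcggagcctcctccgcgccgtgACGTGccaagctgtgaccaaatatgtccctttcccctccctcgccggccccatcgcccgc
Pfkfb2: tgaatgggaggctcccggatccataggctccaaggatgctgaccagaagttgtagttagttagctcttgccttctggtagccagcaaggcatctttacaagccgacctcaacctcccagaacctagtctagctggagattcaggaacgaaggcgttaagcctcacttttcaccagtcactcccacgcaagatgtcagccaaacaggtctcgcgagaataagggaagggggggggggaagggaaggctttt
The Pfkfb3 window shown held the motif once, and the window of its other listed start also held it. The Pfkfb2 window shown held no match, while 2 of its 3 listed starts did. Of the 31 members with a promoter entry (Slc2a4 has none), 15 had ACGTG in at least 1 window (48.4%), beside 24.7% of the genes tested that have an entry and 18.5% of all genes in the promoter table. By call, these were 3 of the 5 members that rose, 7 of 13 that fell and 5 of 13 that did not pass the test. A gene with more listed starts has more windows in which to hold the motif, and the shares were not adjusted for the number of starts. A match describes the letters and is not a binding site.

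**Figure D2:**
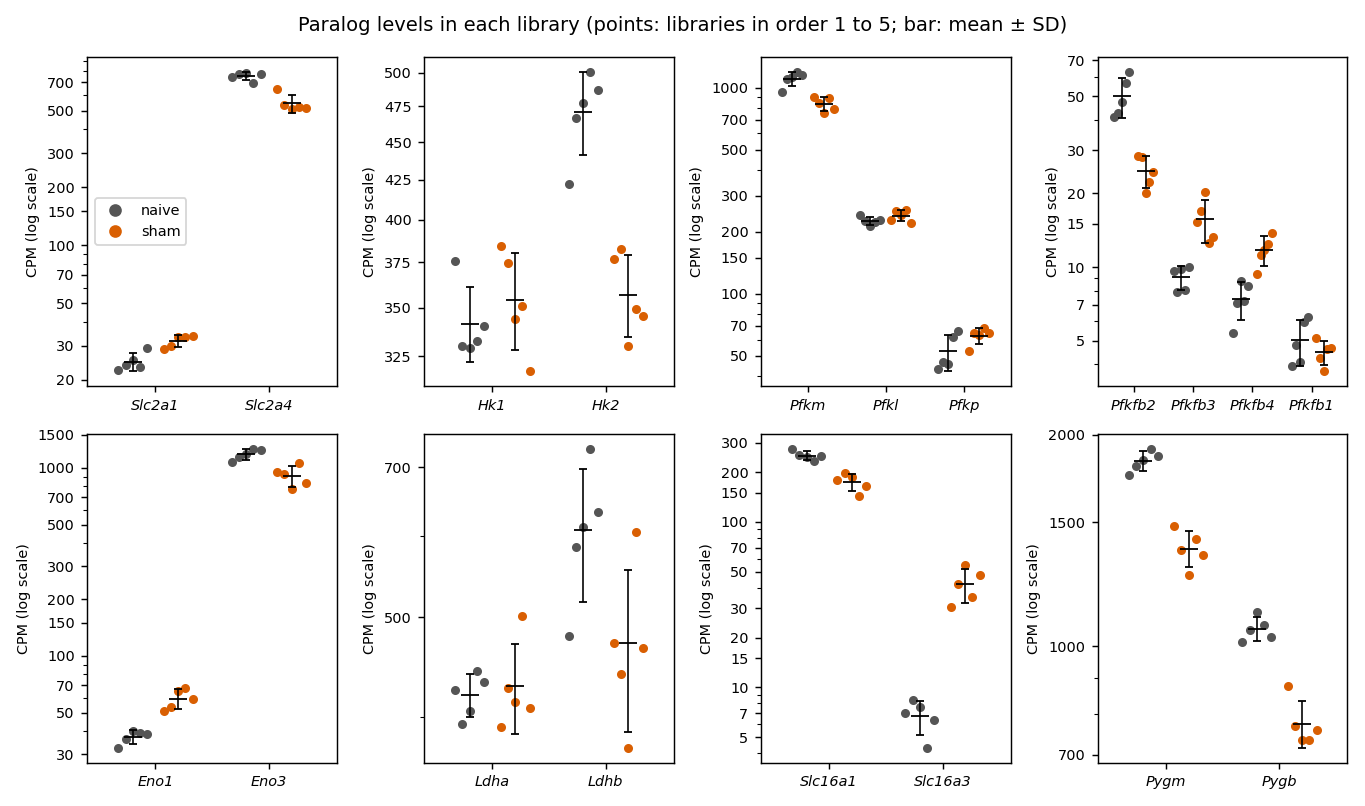
TMM-scaled CPM on a log axis in each library for 8 paralog families; points are libraries 1 to 5 of each group and bars are the mean ± SD (n = 5). Slc16a3, Pfkfb3, Pfkfb4 and Eno1 lay higher in all sham than in all naive libraries, and Slc2a4, Hk2, Pfkm, Pfkfb2, Eno3, Slc16a1, Pygm and Pygb lay lower.

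Among the 9 genes of lower glycolysis, which splits the sugar and harvests ATP, enolase changed and the others did not pass the test. Eno3 (chr11:70657202-70662513, plus strand), the muscle enolase, read 1075, 1139, 1189, 1267 and 1247 CPM in naive and 946, 930.0, 771, 1065 and 831 CPM in sham libraries. The highest sham value, sham 4, was just below the lowest naive value, and Eno3 fell by 0.38 ± 0.10 on the log2 scale (adjusted p = 0.00614). Eno1 (chr4:150236721-150248879, plus strand), the enolase of most tissues, read 32.5, 36.0, 39.7, 39.2 and 38.6 CPM in naive and 50.8, 53.9, 65.3, 67.8 and 59.3 CPM in sham libraries. All sham values were above all naive values, and Eno1 rose by 0.68 ± 0.10 (log2, adjusted p = 5.79e-05). Eno1 was 2.37% ± 0.0895 of the pair per length in naive and 4.86% ± 0.852 (SD, n = 5) in sham libraries, and its ratio to Eno3 was 2.08-fold higher in sham (exact permutation p = 0.00794, adjusted 0.0115). The Eno1 level itself is uncertain, since 85.6% of its principal transcript is matched at 95% identity or more by other genes, mainly Eno1b, which held 3 counts over the 10 libraries.

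The other 7 members of lower glycolysis did not pass the test, although Aldoa and Pgam2 did so with DESeq2, with the GC correction and without sham 4. Aldoa, the muscle aldolase, had the highest level per length of the 32 members, at 2293 ± 95.5 FPKM (SD, n = 5) in naive and 2005 ± 142 FPKM in sham libraries, and did not pass (log2 -0.19 ± 0.08, adjusted p = 0.0782). Pgam2, the muscle phosphoglycerate mutase, read 611, 597, 591, 660.1 and 571 CPM in naive and 479, 527, 419, 630.0 and 456 CPM in sham libraries. Its groups overlapped through sham 4, and the log2 fold change was -0.27 ± 0.10 (adjusted p = 0.0557). Pgam1, the form of most tissues, read 3.09, 4.18, 2.92, 2.43 and 1.83 CPM in naive and 2.34, 3.96, 3.89, 3.21 and 3.10 CPM in sham libraries (0.19 ± 0.22, adjusted p = 0.551). The Pgam1 to Pgam2 ratio differed by 1.41-fold and did not pass (exact permutation p = 0.127, adjusted 0.15). Tpi1, which interconverts the triose phosphates, Pkm, the pyruvate kinase of muscle and most tissues, and Gapdh, the triose phosphate dehydrogenase, had log2 fold changes of -0.10, -0.12 and 0.20. Pgk1, the first enzyme of the pathway that yields ATP, had -0.55 ± 0.22 (adjusted p = 0.0668).

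Several of these genes had low counts and near-identical copies elsewhere in the annotation. Gapdh, a gene expressed by every cell, stood at 38.4 ± 9.93 FPKM (SD, n = 5) in naive libraries, far below Aldoa, and Pgk1 and Pgam1 stood at 1.92 ± 0.444 and 1.63 ± 0.492 FPKM. Of the principal transcripts, 88.0% of Gapdh was matched at 95% identity or more by 82 other annotated genes, 68.8% of Pgk1 and 43.1% of Pgam1 by others. In all, 9 members had such copies over at least 10% of the transcript, the others being Gpi1, Tpi1, Eno1, Pkm, Ldha and Ldhb. Eno1 and Ldhb were the 2 of these 9 that were called, while of the 23 members without such copies 4 rose and 13 fell. Of all genes tested 17.2% rose and 15.5% fell. Copies were sought for the members only, so neither subset has a matched share over other genes, and the 2 subsets were not compared by a test. How the deposited counts treat reads with several matches is not stated in the labels or headers, so levels and changes of these 9 genes are uncertain.

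**Figure D3:**
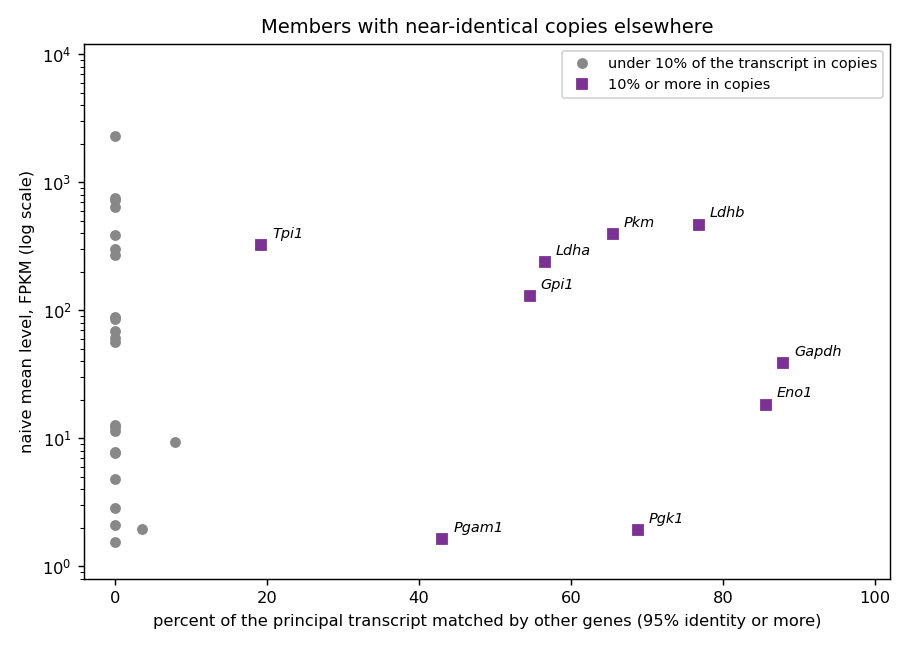
Naive mean level per length (FPKM, log axis) of each member against the percentage of its principal transcript matched at 95% identity or more by other annotated genes. Purple squares are the 9 members with 10% or more in copies, among which Gapdh (88.0%), Pgk1 (68.8%) and Pgam1 (43.1%) stood at 38.4, 1.92 and 1.63 FPKM.

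Lactate dehydrogenase interconverts pyruvate and lactate, and monocarboxylate carriers move lactate across the membrane. Slc16a3 (chr11:120948480-120960868, plus strand) encodes MCT4, a low-affinity carrier of lactate export in highly glycolytic cells. It read 7.02, 8.37, 7.58, 4.31 and 6.31 CPM in naive and 30.7, 42.1, 54.9, 35.1 and 47.5 CPM in sham libraries. The lowest sham library stood well above the highest naive library, and Slc16a3 rose 6.25-fold, the largest change of the 32 members (log2 2.64 ± 0.18, adjusted p = 3.87e-08). Slc16a1 (chr3:104638668-104658462, plus strand) encodes MCT1, the high-affinity carrier through which the heart takes up lactate. It read 277, 253, 246, 232 and 252 CPM in naive and 180.4, 196, 186, 144 and 165 CPM in sham libraries. The sham values all lay below the naive values, and Slc16a1 fell by 0.53 ± 0.09 on the log2 scale (adjusted p = 3.65e-04).

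Within the pair, Slc16a3 was 2.52%, 3.26%, 3.05%, 1.86% and 2.50% of the transcripts per length in naive libraries 1 to 5 and 14.8%, 18.0%, 23.1%, 19.9% and 22.7% in sham libraries 1 to 5. The ratio of Slc16a3 to Slc16a1 was 9.06-fold higher in sham, the largest difference of the 13 pairs (exact permutation p = 0.00794, adjusted 0.0115). Slc16a1 remained the more abundant in every library. With TMM scaling the pair's summed level was 58.5 ± 3.92 FPKM (SD, n = 5) in naive and 49.1 ± 5.68 FPKM in sham libraries. The sham mean was 84.0% of the naive mean, a difference that was not tested. Macrophage and monocyte markers and fibroblast markers moved with Slc16a3, and their part in its increase was not tested. The 250 bases before the RefSeq start of each carrier are shown because the pair moved furthest apart (Slc16a3, chr11:120948817-120949066, and Slc16a1, chr3:104638414-104638663, both on the plus strand of GRCm38.p6). Capitals mark ACGTG, or CACGTG where the match lies in that E-box.
Slc16a3: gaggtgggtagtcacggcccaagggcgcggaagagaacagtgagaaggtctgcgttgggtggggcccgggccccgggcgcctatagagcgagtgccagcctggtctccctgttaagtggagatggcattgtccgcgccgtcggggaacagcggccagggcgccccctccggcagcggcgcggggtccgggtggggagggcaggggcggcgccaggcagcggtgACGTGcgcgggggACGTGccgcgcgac
Slc16a1: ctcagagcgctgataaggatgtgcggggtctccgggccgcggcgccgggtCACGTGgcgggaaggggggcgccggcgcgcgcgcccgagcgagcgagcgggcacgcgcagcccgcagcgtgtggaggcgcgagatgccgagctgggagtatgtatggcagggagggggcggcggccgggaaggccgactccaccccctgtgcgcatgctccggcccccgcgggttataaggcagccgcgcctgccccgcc
The Slc16a3 window held 2 matches close to the start. The Slc16a1 window also held 2, which are both strands of the same CACGTG.

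Ldhb (chr6:142490249-142507957, minus strand), the heart form of lactate dehydrogenase, read 480.0, 586, 612, 730.2 and 633 CPM in naive and 472, 441, 373, 606 and 467 CPM in sham libraries. The groups overlapped, since sham 4 lay among the naive values, and the log2 fold change was -0.37 ± 0.13 (adjusted p = 0.0376). This call was lost when any of 8 of the 10 libraries was left out, all except naive 1 and sham 4 (adjusted p from 0.0543 to 0.106), and with the GC correction (0.0528). Of its transcript 76.8% is matched by a pseudogene. Ldha, the form of fast muscle and many other tissues, read 425, 393, 406, 444 and 433 CPM in naive and 391, 427, 414, 502 and 408 CPM in sham libraries (0.03 ± 0.08, adjusted p = 0.831). The Ldha to Ldhb ratio was 1.31-fold higher in sham (exact permutation p = 0.0317, adjusted 0.0413). Its groups overlapped, and leaving out naive 2, 3, 4 or 5 or sham 2 or 3 moved its adjusted exact p to between 0.0516 and 0.0722.

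**Figure D4:**
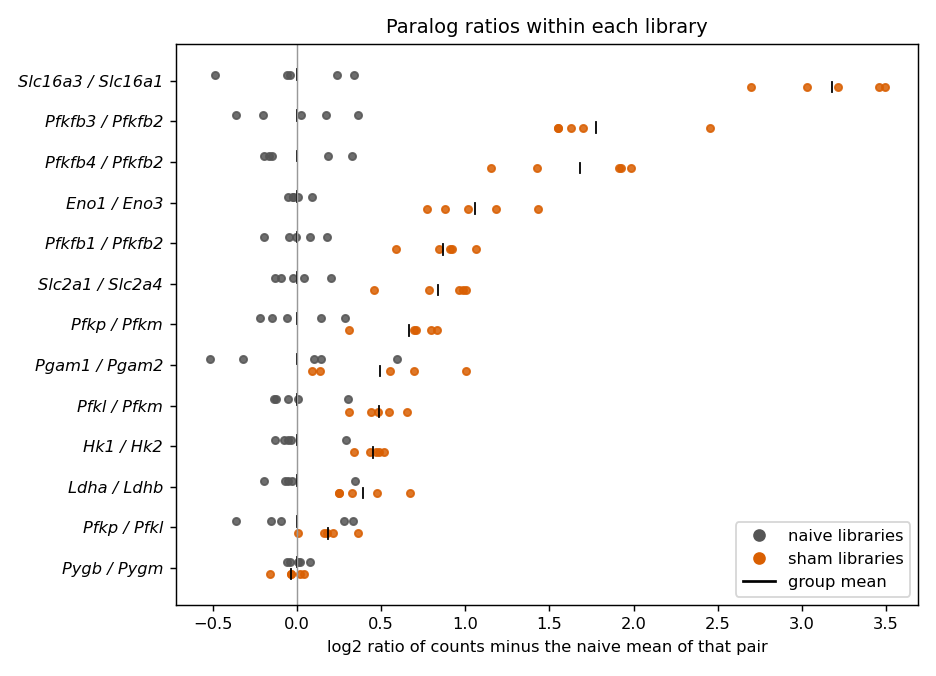
Within-library log2 ratio of counts for the 13 paralog pairs, each minus that pair's naive mean; points are libraries and short bars are group means (n = 5). In 9 pairs the sham libraries all exceeded the naive libraries, with the mean difference running from 0.45 for Hk1 to Hk2 to 3.18 for Slc16a3 to Slc16a1.

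In all, 10 of the 13 ratios passed, each with a higher ratio of the first-named to the second-named form in sham, and the groups did not overlap in 9 of them. These pairs were chosen with earlier results of these data known, and ratios that share Pfkm or Pfkfb2 are not independent. How often the ratios of other gene pairs differ was not computed, so this count has no background share. Of all single genes tested, 32.7% were called in either direction. With TMM scaling the first-named Hk1, Pfkl, Pfkp, Pfkfb1 and Ldha did not themselves pass the gene test, while the second-named Hk2, Pfkm, Pfkfb2 and Ldhb fell. With library size alone Hk1, Pfkl, Pfkp and Ldha were called higher, and the calls of Hk2, Pfkm and Ldhb were lost. Pfkfb2 was lower under both. In the Hk, Pfk and Ldh pairs, which paralog was called thus depended on the scaling. The Pygb to Pygm ratio, between the brain and muscle forms of glycogen phosphorylase, had a log2 difference of -0.03 (exact permutation p = 0.468, adjusted 0.468). Pygb was 29.8% ± 0.787 (SD, n = 5) of that pair per length in naive and 29.3% ± 1.09 in sham libraries, while both genes fell.

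All 7 glycogen members were lower in sham, with log2 fold changes from -0.72 to -0.30 and a median of -0.45, beside a median of -0.39 for the 12 cardiomyocyte markers. Pygm (chr19:6384399-6398459, plus strand), the muscle phosphorylase that releases glucose units from glycogen, read 1749, 1806, 1837, 1909.6 and 1861 CPM in naive and 1481, 1368, 1261, 1421 and 1349.7 CPM in sham libraries. Pygb (chr2:150786735-150831758, plus strand) read 1012, 1054, 1119, 1072 and 1029.6 CPM in naive and 879, 771, 736, 734 and 759.8 CPM in sham libraries. In both, every sham library lay below every naive library, and the log2 fold changes were -0.41 ± 0.08 for Pygm (adjusted p = 6.89e-04) and -0.45 ± 0.08 for Pygb (adjusted p = 4.70e-04). Phosphorylase kinase switches phosphorylase on. Its muscle catalytic subunit gene Phkg1 (chr5:129863421-129898549, minus strand) read 22.5, 23.7, 22.7, 19.4 and 23.4 CPM in naive and 18.4, 14.3, 10.2, 13.5 and 12.0 CPM in sham libraries. The groups did not overlap, and Phkg1 fell by 0.72 ± 0.13 on the log2 scale (adjusted p = 7.22e-04), the glycogen call that also held with library size alone.

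Phka1, the muscle regulatory subunit of the same kinase, stood at 29.4 ± 7.58 CPM (SD, n = 5) in naive and 22.2 ± 2.53 CPM in sham libraries (-0.42 ± 0.15, adjusted p = 0.0428). Its groups overlapped, and the call was lost without naive 4 or 5 or sham 2, 3, 4 or 5, each left out in turn (adjusted p from 0.0768 to 0.127). Of the genes that build glycogen, Gys1, the muscle glycogen synthase, stood at 254 ± 13.9 and 206 ± 19.4 CPM (-0.30 ± 0.08, adjusted p = 0.0109). Gbe1, the branching enzyme, stood at 22.4 ± 2.75 and 15.9 ± 1.25 CPM (-0.50 ± 0.10, adjusted p = 0.00172). Ugp2, which makes the UDP-glucose used by glycogen synthase, stood at 32.7 ± 5.49 and 23.8 ± 3.00 CPM, with overlap (-0.46 ± 0.12, adjusted p = 0.00762). Genes of glycogen synthesis and of glycogen breakdown were lower together. Cardiomyocyte markers moved the same way, and their part in these decreases was not tested.

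Further genes of the pathway, outside the 32, were read from the same fit in 5 lists of 113 genes, of which 101 were tested. Of these, 16 rose (15.8%, near the 17.2% of all genes tested) and 34 fell (33.7%, beside 15.5%). Of 15 other carriers tested, 4 rose and 4 fell (26.7% each, beside 17.2% and 15.5% of all genes). Slc2a6, a glucose carrier gene known from leukocytes, rose from 1.28 to 5.91 CPM (2.24 ± 0.29, adjusted p = 2.28e-05), and Bsg, which encodes the chaperone basigin that brings MCT1 and MCT4 to the membrane, fell by 0.35 ± 0.08 on the log2 scale (adjusted p = 0.00456). Slc2a12, an insulin-responsive carrier gene of heart and muscle, fell by 0.73 ± 0.15 (adjusted p = 0.00155), and Slc5a1, the sodium-coupled glucose carrier gene, fell from 1.53 to 0.522 CPM. Of 14 other glycolytic enzyme genes tested, 3 rose (21.4%, beside 17.2%) and 5 fell (35.7%, beside 15.5%), and 8 were too low to test. Hk3, a hexokinase gene of myeloid cells, rose from 2.45 to 8.75 CPM (1.85 ± 0.20, adjusted p = 3.93e-06), and Eno2, the neuronal enolase gene, from 2.72 to 7.47 CPM (1.48 ± 0.28, adjusted p = 7.34e-04). Sham 4 raised the Eno2 mean, with 13.9 CPM against 5.14 to 6.41 CPM in the other sham libraries. Ldhd, for D-lactate dehydrogenase, fell from 70.7 to 49.4 CPM (adjusted p = 6.79e-05).

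Among 24 other glycogen genes tested, 3 rose (12.5%, beside 17.2% of all genes) and 9 fell (37.5%, beside 15.5%). Pygl, the liver phosphorylase gene, rose by 1.19 ± 0.15 (log2, adjusted p = 1.60e-05), opposite to Pygm and Pygb. Ppp1r3c, which targets a phosphatase to glycogen, fell by 0.73 ± 0.14 on the log2 scale (adjusted p = 8.91e-04), and Epm2a, the laforin phosphatase gene, by 0.75 ± 0.17 (adjusted p = 0.00408). Of 17 genes in the pentose phosphate, hexosamine and polyol branches, 4 rose and 2 fell (23.5% and 11.8%, near the 17.2% and 15.5% of all genes). The 4 that rose were the pentose phosphate genes Pgd (0.72 ± 0.08), Tkt (0.61 ± 0.09) and G6pdx (0.78 ± 0.19) and the hexosamine gene Gfpt2 (0.77 ± 0.18), with adjusted p from 7.82e-06 to 0.00424. Of 31 regulators of glucose use, 2 rose (6.45%, beside 17.2%) and 14 fell (45.2%, beside 15.5%). Myc, a transcription factor gene, rose from 7.42 to 17.1 CPM (adjusted p = 4.07e-05). Mlxipl, which encodes the glucose-sensing factor ChREBP, fell by 0.50 ± 0.09, Tbc1d4, which controls GLUT4 traffic, by 0.59 ± 0.13, and Prkaa2, the muscle catalytic subunit gene of AMP-activated kinase, by 0.54 ± 0.12 on the log2 scale. The list medians ran from -0.27 for the other glycolytic enzymes to 0.11 for the pentose phosphate, hexosamine and polyol branches, beside -0.05 for all genes.

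**Figure D5:**
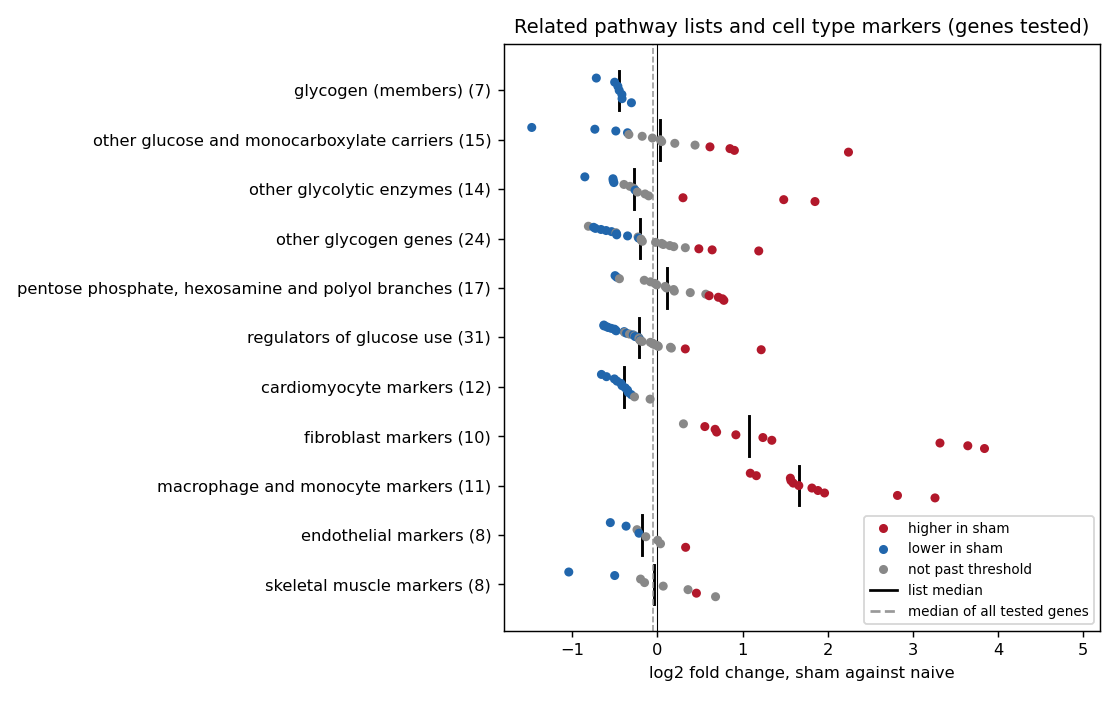
Log2 fold change, sham against naive, of every tested gene of the glycogen members, 5 lists of related genes and 5 lists of cell type markers (number tested in brackets), coloured by call, with each list's median as a bar and the median of all genes (-0.05) dashed. The glycogen members (median -0.45) and the cardiomyocyte markers (-0.39) lay below it, and the macrophage and monocyte markers (median 1.66) above it.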

How the data were processed

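Ventricles of naive and sham-operated mice, 5 samples of each, were profiled with single-end poly(A) libraries that do not mark strand (labels' protocols). The deposited table gives raw counts per Ensembl gene on GRCm38 and each gene's GC content in percent, per the file headers. The submitters' processing notes list HTSeq, TopHat2 2.1.1, Bowtie2, edgeR and DESeq with no roles. No label or header states the annotation release, the strand setting or the treatment of reads with several matches. Without strand, reads of genes that overlap on opposite strands cannot be told apart.

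The table has 41264 rows; merging 574 repeated rows with equal counts left 40690 genes. filterByExpr (edgeR 4.0.16, minimum count 10) kept 13622 genes, scaled with TMM. Groups came from the treatment labels, and all 10 columns were used. Between libraries of a group chi-square over its degrees of freedom was 10.1 or more, well above sampling noise, so none was counted as a repeat. Genes were tested with edgeR's quasi-likelihood method (robust F statistic, group as the sole term), adjusted over all genes by Benjamini-Hochberg at 0.05; members were read from that fit. Standard errors were derived from the fold change and the F statistic. Ratios of paralogs are log2 ratios of counts with 0.5 added, compared by exact two-sided permutation and adjusted over 13 pairs. Floors of 3 counts cover counting error only. Both procedures were tested on simulated data.

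The members, pairs and lists were chosen with earlier results of these data known. Per-library values are given for paralog families with a called member or ratio, and from each related list up to 4 genes of smallest p per direction could be named, of which the text gives those that describe the list; of the 113 listed genes 11 were too low to test and Oga was not found by that symbol, its older symbol Mgea5 being listed beside it. Coordinates and lengths are from GENCODE M21, which matched all 32 members; copies were found by aligning principal transcripts to its other transcripts (95% identity, 50 bases or more). Promoter windows are from RefSeq (GRCm38.p6) and matched 31 members by symbol. Alternatives were DESeq2 1.42.0, RLE factors, library size alone, no filter, a filter of 1 CPM in 5 libraries, the replicate number as a block (for ratios with limma 3.58.1), removal of the 20 most abundant genes, a GC correction with and without the block, a prior count of 5 for the ratios and each library left out. Naive 1 and sham 4 were left out together as an alternative chosen after seeing the data. All fits were run in R 4.3.3.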

Additional observations from a re-analysis of the deposited data

Results flagged for a closer look

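In groups of 5 libraries, the highest or lowest value was compared with its nearest neighbour by Dixon's ratio, and 8 of 90 groups of member levels and paralog ratios had a library that stood apart; chance gives about 1 in 20. In 3 cases the library was sham 1, which lay toward the naive values in each. Slc2a4 read 644 CPM there, against 507 to 533 CPM in the other sham libraries. Pygb read 879 CPM in sham 1, against 734 to 771 CPM. The Pfkp to Pfkm log2 ratio was -4.09 in sham 1, against -3.71 to -3.57.

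Naive 1 stood apart in hexokinase 1. Hk1 read 376 CPM there, against 329 to 341 CPM in the other naive libraries, and the Hk1 to Hk2 log2 ratio was -0.17, against -0.59 to -0.50. Gys1 read 278 CPM in naive 5, against 244 to 249.7 CPM. Phkg1 read 19.4 CPM in naive 4, against 22.5 to 23.7 CPM. The Pfkfb3 to Pfkfb2 log2 ratio was 0.014 in sham 3, against -0.89 to -0.74, so sham 3 was the library in which the counts of Pfkfb3 reached those of Pfkfb2.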

How the results depend on the processing

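Of the settings tried, library size alone moved a count of calls by over 1.5 times. With it 4473 genes were higher and 283 lower, and 11 members were called, 9 higher and 2 lower; by construction this setting drops the TMM factors. Under it Gpi1 (0.052), Pfkfb1 (0.086), Aldoa (0.072), Tpi1 (0.17) and Pkm (0.15), none of them past the test with TMM, changed sign. Pfkl turned to -0.0026 with the GC correction and -0.0012 with the GC correction and the block; Ldha turned to -0.0065 and -0.0089 with these, -0.0046 without sham 4 (0.063 without sham 5, the highest) and -0.0045 without naive 1 and sham 4; the cause was not tested. DESeq2 gave 5 members higher and 16 lower, beside 2539 and 2163 of the 17021 genes it tested. The GC correction gave the same member counts, beside 2372 and 2281 of all genes. The GC correction with the block gave 6 and 19 members, beside 2667 and 2973 of all genes. The GC correction without the block ended the call of Ldhb (adjusted p = 0.0528). Apart from library size alone, genes called lower ran from 1465 (without sham 2) to 2973 (GC correction and block), against 2113. Leaving out each library gave 5 to 6 members higher and 12 to 15 lower, beside 2132 to 2461 and 1465 to 2249 of all genes. It left 9 to 10 ratios. The member calls lost in this way were those of Ldhb and Phka1. Without naive 1 and sham 4 together 5 members were higher and 18 lower, beside 2594 and 2131 of all genes, and all 19 calls remained.

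Same-numbered naive and sham libraries correlated by 0.008 to 0.293 in their deviations from the group means, and those of different number by -0.308 to 0.229. For numbers 1, 4 and 5 the same-numbered library was the best match (0.227, 0.293 and 0.292), while naive 2 correlated best with sham 3 (0.134). The labels name no pairing or batch, so the main test has no block, and the number was used as a block in an alternative. What the number stands for is not stated and was not tested. With the replicate block 6 members were higher and 17 lower, beside 2592 and 2801 of all genes, and 11 ratios passed, with Pgam1 to Pgam2 added; 18 of the 19 member calls remained, that of Phka1 being lost (adjusted p = 0.0502), while Gpi1, Pfkp, Aldoa, Pgk1 and Pgam2 passed (adjusted p from 0.00757 to 0.0429). Pgk1 and Pgam1 held only 449 and 481 counts over the 10 libraries. Both have near-identical copies, and the reason for their low counts was not tested.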

Other observations

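Markers of other cells that a ventricle sample could hold were read from the same fit. Of 8 endothelial markers tested 1 was higher and 3 were lower in sham (summed 1146 to 1388 CPM in naive and 1057 to 1189.7 CPM in sham libraries), and of 8 smooth muscle and pericyte markers 1 was higher and 1 lower (742 to 1084 CPM and 808 to 1003 CPM). The neutrophil markers that could be tested, Csf3r and S100a9, were both higher, and 5 were too low to test (summed 1.90 to 4.86 CPM and 14.6 to 33.6 CPM). The lymphocyte markers tested, Cd22 and Ccl5, were both higher and 6 were too low to test (1.85 to 3.28 CPM and 6.93 to 10.3 CPM). None of 5 erythroid markers passed the test (44.2 to 359 CPM and 68.3 to 293 CPM). Adipocyte markers were too low to test, and Ucp1 had 0 counts in naive libraries. Among skeletal muscle markers Myh4 had 19 counts over all naive and 25 over all sham libraries, and 1 of the 8 tested was higher and 2 were lower; Ckmt2, which cardiomyocytes also express, held most of that list's summed level (1276 of 1321 CPM on average in naive libraries). Of 4 atrial markers tested 1 was higher and 1 lower, and Sln had 0 counts in naive libraries.

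Aldoc, the brain aldolase gene, had 21 counts over the 5 naive libraries and 231 over the 5 sham libraries (0.866, 0.417, 1.21, 7.05 and 1.59 CPM in sham 1 to 5, so sham 4 held most of it). It did not pass the filter on low counts and was not tested; it was named after its values were seen.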
